A study of Mus musculus with 2 samples.

Results

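The genes of the microRNA processing pathway were examined in mouse B cell progenitors, together with Lin28b, which blocks the maturation of 1 microRNA family. The 10 genes were taken by name: Drosha, Dgcr8, Xpo5, Dicer1, Tarbp2, Ago1, Ago2, Ago3, Ago4 and Lin28b. RefSeq accessions in the deposited table were matched to gene symbols, which gave 12 protein-coding transcripts for these 10 genes, out of 26968 protein-coding transcripts of 20250 genes in all. One library came from Ebf1 -/- pre-pro-B cells, which lack a transcription factor needed for commitment to the B lineage, and 1 library came from Rag2 -/- pro-B cells, which are committed but cannot rearrange their antigen receptor genes. Both were on a C57BL/6 background and were grown on OP-9 stromal cells with interleukin 7 at 5 ng/mL, and the pre-pro-B cells also received Scf and Flt3l at 10 ng/mL each. The pre-pro-B cells were derived from female embryonic livers and the pro-B cells from adult male bone marrow. Cell stage, genotype, sex, age, tissue of origin and cytokines therefore changed together between the libraries and cannot be told apart. There was no replicate library of either cell type, so no test between them was possible and each difference below compares 1 library with 1 library.

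A microRNA starts as a hairpin inside a longer transcript. The nuclear RNase Drosha and its RNA-binding partner Dgcr8 cut the hairpin out, Xpo5 (exportin 5) carries it to the cytoplasm, and Dicer1 with its partner Tarbp2 trims it to a short duplex. One strand is loaded into an Argonaute protein, Ago1 to Ago4, and guides it to mRNAs that pair with the seed of the microRNA, bases 2 to 8 from its 5′ end. Lin28b and its relative Lin28a bind the precursors of the let-7 family and keep them from maturing, and let-7 in turn represses Lin28 mRNAs. Lin28b is known for its high level in fetal blood progenitors and its low level in adult ones.

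The let-7 family is shown first, because both its repression by Lin28 and its pairing with mRNAs are set by short sequences. The RefSeq table, on build GRCm38.p6, gave 9 different mature 5′ arm sequences for the family. They shared 1 seed, GAGGUAG, printed here in capitals.
let-7a: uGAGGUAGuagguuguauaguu
let-7b: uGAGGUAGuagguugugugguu
let-7c: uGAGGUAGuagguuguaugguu
let-7d: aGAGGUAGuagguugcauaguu
let-7e: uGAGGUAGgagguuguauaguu
let-7f: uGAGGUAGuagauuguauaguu
let-7g: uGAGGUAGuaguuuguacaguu
let-7i: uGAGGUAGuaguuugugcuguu
miR-98: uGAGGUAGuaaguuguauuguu

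Lin28 proteins are known to recognise the letters GGAG in the terminal loop of let-7 precursors. Of 12 let-7 family hairpins, 9 held GGAG between their arms and 3 did not, namely Mirlet7b, Mirlet7c-2 and Mir98. For Mirlet7a-2 only 1 arm matched the hairpin, so the stretch searched was open on the other side. These 4 letters are common by themselves, and 447 of all 1005 mouse hairpins in the table (44.5%) held them somewhere. A pair of hairpins with the letters, in capitals, and a pair without them are printed with their GRCm38.p6 positions: Mirlet7a-1 at chr13:48538179-48538272 on the minus strand, Mirlet7g at chr9:106178840-106178927 on the plus strand, Mirlet7b at chr15:85707319-85707403 on the plus strand and Mir98 at chrX:151913214-151913321 on the plus strand.
Mirlet7a-1: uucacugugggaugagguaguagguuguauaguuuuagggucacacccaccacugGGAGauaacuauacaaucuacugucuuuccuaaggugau
Mirlet7g: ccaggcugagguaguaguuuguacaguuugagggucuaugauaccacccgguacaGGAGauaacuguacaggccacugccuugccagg
Mirlet7b: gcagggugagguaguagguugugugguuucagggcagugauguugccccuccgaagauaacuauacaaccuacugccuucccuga
Mir98: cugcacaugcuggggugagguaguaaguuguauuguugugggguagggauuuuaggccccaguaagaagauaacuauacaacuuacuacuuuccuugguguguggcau

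The hairpins themselves were not a usable readout in these libraries, because RNAs of their size were removed before sequencing. Their lengths of 83 to 108 bases also left little or no room for a full read of 97 bp. The deposited table listed 11 of the 12 let-7 hairpins at an FPKM of 0 in both libraries. FPKM counts sequenced fragments scaled to transcript length and to all mapped fragments of the library, so levels of different genes can be set side by side. The exception was Mir98, at 175 FPKM (95% interval 0 to 246) in pre-pro-B and 524 FPKM (0 to 1009) in pro-B cells. Its 2 intervals, which Cuffdiff computed for each library, overlapped widely.

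Of the core machinery genes compared, Ago4 alone was past a 2-fold difference between the libraries. Of the 10 genes, 9 reached an FPKM of 1 in at least 1 library and were compared, and Lin28b did not. None of the 9 was at least 2-fold higher in pre-pro-B cells, against 20.9% of the 10284 genes compared, and 1 of 9 was higher by that factor in pro-B cells, against 14.3% of all genes. The other 8 lay within 2-fold, as did 6666 of the 10284 genes compared. With 9 genes, these counts do not set the pathway apart from all genes. The median log2 ratio of pro-B over pre-pro-B was -0.14 over the 9 genes and -0.14 over all genes compared. No transcript of the 10 genes had intervals that separated the libraries: all 12 pairs of intervals overlapped, and 9 of the 12 transcripts reached the FPKM minimum. Over all 12330 transcripts that reached it, the intervals were apart for 2.57% with the higher level in pre-pro-B and for 1.27% with the higher level in pro-B cells.

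**Figure D1:**
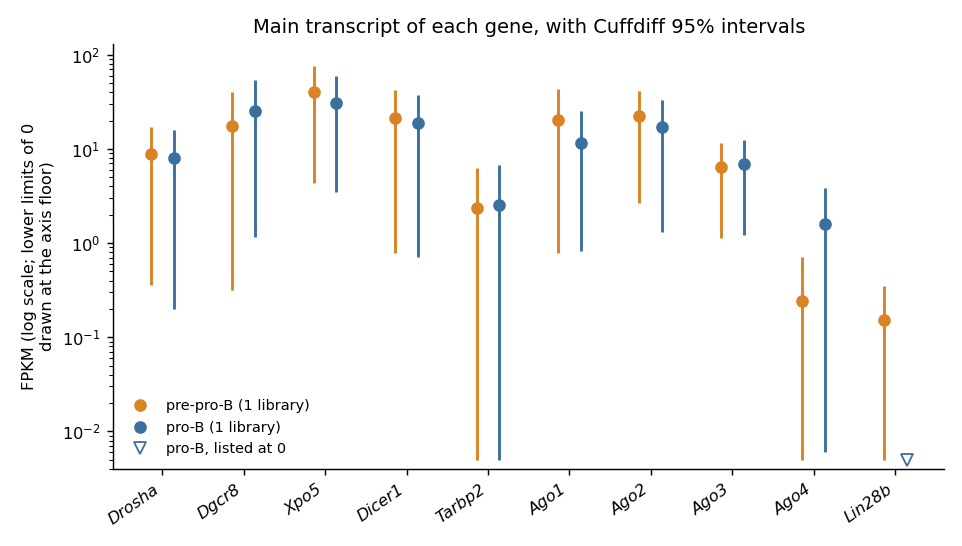
FPKM of the main transcript of each gene on a log axis, with pre-pro-B cells in orange and pro-B cells in blue (1 library each). Vertical lines are Cuffdiff 95% intervals, with lower limits of 0 drawn at the axis floor, and the open triangle marks Lin28b listed at 0 in pro-B cells; the paired intervals of all 10 genes overlap.

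The nuclear cutting enzyme and its partner differed in direction. Drosha, on chromosome 15 at 12754570 to 12865045 of build mm9, was at 8.76 FPKM in pre-pro-B and 7.97 FPKM in pro-B cells (log2 ratio -0.14.) Nearly all of it came from 1 of 2 RefSeq transcripts, with intervals of 0.362 to 17.2 and 0.200 to 15.9 FPKM. Dgcr8, which holds the hairpin for Drosha, was at 17.5 FPKM (0.318 to 39.8) in pre-pro-B and 25.4 FPKM (1.15 to 53.7) in pro-B cells (log2 ratio 0.54.) Dgcr8 was thus the more abundant of the pair in both libraries, at 2.00 times the Drosha level in pre-pro-B and 3.19 times in pro-B cells. Drosha protein is known to cut Dgcr8 mRNA, which carries hairpins of its own, and the table does not separate cut from intact RNA.

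Xpo5 had the highest FPKM of the 10 genes in both libraries. It was at 40.3 FPKM (4.40 to 76.2) in pre-pro-B and 31.0 FPKM (3.44 to 58.7) in pro-B cells (log2 ratio -0.38.) These levels put it at percentile 90.7 and 87.7 of all protein-coding genes in the respective library.

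The pair of the cytoplasmic cutting step differed little between the libraries. Dicer1, the single Dicer of the mouse, was at 21.2 FPKM (0.778 to 42.0) in pre-pro-B and 18.9 FPKM (0.706 to 37.2) in pro-B cells (log2 ratio -0.17.) Tarbp2, its double-stranded RNA-binding partner, had a lower FPKM, at 2.55 in pre-pro-B and 2.92 in pro-B cells (log2 ratio 0.20.) Of its 2 transcripts, the longer gave 2.34 FPKM (0 to 6.24) in pre-pro-B and 2.52 FPKM (0 to 6.73) in pro-B cells. The shorter gave 0.207 and 0.391 FPKM. By FPKM, Dicer1 exceeded Tarbp2 by 8.34-fold in pre-pro-B and 6.49-fold in pro-B cells. The intervals of the longer Tarbp2 transcript overlapped those of Dicer1 and had lower limits of 0, so neither fold has an upper bound. Prkra, the other known Dicer partner, was at 10.2 and 11.4 FPKM, above Tarbp2 in both libraries.

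**Figure D2:**
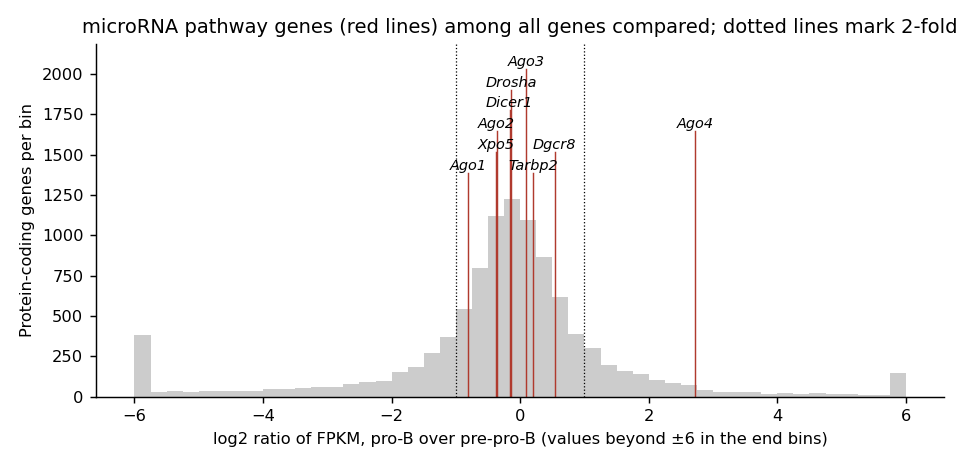
Histogram of log2 FPKM ratios, pro-B over pre-pro-B, for the 10284 genes compared (x axis, log2 ratio; y axis, genes per bin), with red lines at the 9 pathway genes and dotted lines at a 2-fold difference. Of the 9 genes, 8 lie between -0.81 and 0.54, near the centre of the distribution, and Ago4 stands at 2.73.

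Among the Argonaute genes, Ago3 differed least between the libraries and Ago4 most. Ago1 was at 20.04 FPKM (0.783 to 43.5) in pre-pro-B and 11.4 FPKM (0.833 to 25.5) in pro-B cells, 1.76-fold higher in pre-pro-B with a log2 ratio of -0.81. Ago2, the Argonaute that can slice a paired mRNA, was at 22.1 FPKM (2.69 to 41.6) and 17.2 FPKM (1.30 to 33.1), a log2 ratio of -0.37. Ago3 was at 6.40 FPKM (1.14 to 11.7) and 6.83 FPKM (1.22 to 12.4), a log2 ratio of 0.09. All 3 pairs of intervals overlapped over most of their range.

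Ago4 was the Argonaute with the lowest level in both libraries and the single gene past 2-fold. It was at 0.240 FPKM (0 to 0.703) in pre-pro-B and 1.59 FPKM (0.00606 to 3.82) in pro-B cells, which is 6.62-fold higher in pro-B with a log2 ratio of 2.73. With a pseudocount of 1 added to both values the log2 ratio was 1.06. On the nominal depth of 90000000 reads, this equals about 141 and 933 fragments. Its 2 intervals still overlapped. Because the pre-pro-B level lay under an FPKM of 1, Ago4 entered the comparison through the pro-B library alone.

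Ago2 and Ago1 made up most of the summed Argonaute FPKM in both libraries. The sum was 48.8 FPKM in pre-pro-B and 37.0 FPKM in pro-B cells. Ago1 held 41.0% of it in pre-pro-B and 30.8% in pro-B cells, and Ago2 held 45.4% and 46.4%. Ago3 held 13.1% and 18.5%, and Ago4 held 0.492% and 4.30%. Within each library, Ago2 was 92.2 times as abundant as Ago4 in pre-pro-B and 10.8 times in pro-B cells. The former rests on an Ago4 level of 0.240 FPKM whose lower limit was 0, so it has no upper bound.

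**Figure D3:**
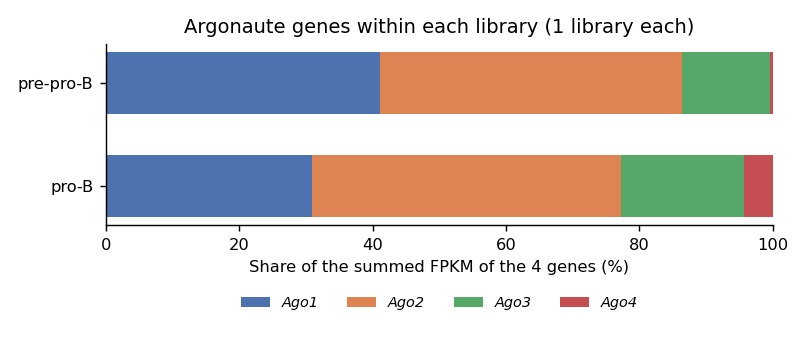
Share of each Argonaute gene in the summed FPKM of the 4 genes (x axis, percent), for the pre-pro-B library above and the pro-B library below. Ago2 takes 45.4% and 46.4%, Ago1 takes 41.0% and 30.8%, and Ago4 takes 0.492% and 4.30%.

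Ago1, Ago3 and Ago4 are neighbours in the genome. In the mm9 annotation, Ago3 (126008948 to 126106800), Ago1 (126112256 to 126145878) and Ago4 (126166785 to 126210716) lie side by side on the minus strand of chromosome 4, within 202 kb. Their log2 ratios were 0.09, -0.81 and 2.73 in that order, so Ago1 and its neighbour Ago4 stood on opposite sides of 0, while Ago3 came to 0.00 with TPM scaling. Ago2 lies apart, on chromosome 15 at 72932055 to 73015377.

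Across the pathway, the order of levels was similar in the 2 libraries. From the highest down it was Xpo5, Ago2, Dicer1, Ago1, Dgcr8, Drosha, Ago3, Tarbp2, Ago4 and Lin28b in pre-pro-B cells. In pro-B cells Dgcr8 stood second, followed by Dicer1, Ago2 and Ago1, and the places from Drosha to Lin28b were the same. For neighbours in this order, the intervals of their main transcripts overlapped in 9 of 9 pairs in pre-pro-B and in 8 of 9 pairs in pro-B cells, where Ago4 and Lin28b were the pair apart.

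Lin28b was barely detected in pre-pro-B cells and was listed at 0 in pro-B cells. The gene lies on the minus strand of chromosome 10, where the deposited locus of its RefSeq transcript in mm9 runs from 45096425 to 45190007. The transcript was at 0.152 FPKM (0 to 0.351) in pre-pro-B cells, about 74.0 fragments at the nominal depth. The interval in pro-B cells was 0 to 0, against a floor of 0.00617 FPKM that 3 fragments would give. The lower limit in pre-pro-B cells was also 0, so the intervals met, and no fold is given against a value of 0. A listed 0 is not proof of absence. A 0 also occurs for 1 of the 2 Hnrnpa1 transcripts, but there the other transcript was above 0, whereas Lin28b has 1 transcript.

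A profile like that of Lin28b was common in the table. Of 20250 genes, 1464 (7.23%) were above 0 in pre-pro-B and listed at 0 in pro-B cells, and 578 of these had at least the FPKM of Lin28b. The reverse held for 855 genes, of which 252 reached that level. The 5 genes nearest to Lin28b, by distance of log2(FPKM + 1) over the 2 libraries, were Clec5a, Olfr701, Mrgprx1, Trappc3l and Calml4, all between 0.151 and 0.153 FPKM in pre-pro-B and listed at 0 in pro-B cells. Lin28a was lower than Lin28b, at 0.0199 FPKM (0 to 0.0681) in pre-pro-B and listed at 0 in pro-B cells.

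Factors that work with the core enzymes were compared as a list of 30 cofactors, 28 of which reached the FPKM minimum. The list counted 3 genes at least 2-fold higher in pre-pro-B (20.9% of all genes), 1 at least 2-fold higher in pro-B (14.3% of all genes) and 24 within 2-fold. Its median log2 ratio was -0.11, against -0.14 for all genes. None of its 45 transcripts, some of them under the FPKM minimum, had intervals that were apart. Over all transcripts that reached the minimum the shares were 2.57% higher in pre-pro-B and 1.27% higher in pro-B cells.

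A group of 6 factors was listed for let-7 tailing and precursor decay, with Eri1 placed in it as a small RNA exonuclease. Of these, 5 were compared and 2 passed 2-fold, in opposite directions: Tut7 was higher in pre-pro-B and Eri1 in pro-B cells. Each direction held 1 of the 5, beside 20.9% of all genes higher in pre-pro-B and 14.3% higher in pro-B. Tut7 (Zcchc6), a terminal uridylyl transferase that adds uridines to let-7 precursors, was at 49.7 FPKM (4.46 to 96.5) in pre-pro-B and 22.7 FPKM (1.90 to 43.6) in pro-B cells, 2.19-fold higher in pre-pro-B. Tut4 (Zcchc11), the uridylyl transferase that Lin28 recruits, was at 59.6 FPKM and 47.7 FPKM, a log2 ratio of -0.32. Dis3l2, the exonuclease that degrades uridylated let-7 precursors, was at 14.9 and 17.2 FPKM. Eri1, an exonuclease that trims small RNAs and histone mRNA, was at 29.8 FPKM (6.83 to 52.7) in pre-pro-B and 63.1 FPKM (14.7 to 111) in pro-B cells, 2.12-fold higher in pro-B, and it fell within 2-fold when the values were rescaled to TPM. The tailing enzymes and Dis3l2 were at least 14.9 FPKM in pre-pro-B cells, beside 0.152 FPKM for Lin28b. A link between these levels was not tested.

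All 8 cofactors of the silencing complex were compared, and 1 passed 2-fold, beside 20.9% of all genes higher in pre-pro-B and 14.3% in pro-B. This was Ddx6, a helicase that links silenced mRNAs to decapping, at 198 FPKM in pre-pro-B and 81.1 FPKM in pro-B cells, 2.44-fold higher in pre-pro-B. The GW182 scaffolds that bind Argonautes did not move as 1 group, with log2 ratios of 0.42 for Tnrc6a, -0.86 for Tnrc6b and -0.28 for Tnrc6c. Of 9 nuclear cofactors, 8 lay within 2-fold, including the Drosha helicases Ddx5 and Ddx17 at log2 ratios of -0.40 and -0.27. The other was Hnrnpa1, at 5.90 and 2.68 FPKM, which has many processed copies in the genome, so that its value is uncertain. All 6 Dicer partners and loading factors compared lay within 2-fold, and Tsnax was listed at 0 in pro-B cells and at 0.0145 FPKM in pre-pro-B cells.

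Textbook targets of let-7 were compared as a list of 21 genes, 17 of which reached the FPKM minimum. In this list 11 genes were at least 2-fold higher in pre-pro-B cells, 1 was higher by that factor in pro-B cells and 5 lay between these limits, beside 20.9% and 14.3% of all genes. Hmga2 and Ccnd1 reached the FPKM minimum in the pre-pro-B library alone, and with the minimum required in both libraries 9 genes were higher in pre-pro-B. The median log2 ratio was -1.69, beside -0.14 for all genes. Many genes of this list are also progenitor or proliferation genes, and the part of let-7 in these values was not tested.

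Hmga2 and Igf2bp3 had the largest ratios among the targets compared. Hmga2, a chromatin protein of fetal stem cells, was at 44.0 FPKM (11.1 to 77.0) in pre-pro-B and 0.328 FPKM (0 to 0.951) in pro-B cells, 134-fold higher in pre-pro-B. Igf2bp3, an RNA-binding protein of fetal tissue, was at 63.9 FPKM (7.23 to 122) and 1.61 FPKM (0 to 4.17), 39.6-fold higher in pre-pro-B. Cdk6, a cell cycle kinase, was at 100 FPKM (22.1 to 179) and 8.39 FPKM (0.112 to 16.9), 12.0-fold higher in pre-pro-B. These were the 3 transcripts, of 35 in the list, whose intervals did not overlap. The 35 include transcripts under the FPKM minimum. Over all 12330 transcripts that reached it, intervals were apart for 2.57% with the higher level in pre-pro-B and for 1.27% with the higher level in pro-B cells.

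For the other named targets higher in pre-pro-B cells the intervals overlapped. The log2 ratios were -3.62 for Mycn and -1.69 for Myc, both growth-promoting transcription factors, and -3.14 for Ccnd1, a G1 cyclin that was low in both libraries. They were -2.25 for Arid3a, a DNA-binding protein of early B cells, -1.86 for the TGF-beta receptor Tgfbr1, -1.76 for the chromatin protein Hmga1 and -1.46 for the insulin receptor Insr. The Hmga1 value sums 14 overlapping transcripts, among which reads were apportioned by Cuffdiff.

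Not all targets followed that direction. Rrm2, the small subunit of ribonucleotide reductase, was at 36.1 FPKM (7.43 to 64.7) in pre-pro-B and 219 FPKM (49.9 to 387) in pro-B cells, 6.08-fold higher in pro-B with intervals that still overlapped. Nras, Cdc25a, Cdc34 and Ccnd2 lay within 2-fold, at log2 ratios from -0.41 for Ccnd2 to 0.58 for Cdc34. The fetal genes Igf2bp1 and Trim71 were near 0 in both libraries, at 0.00377 and 0.0141 FPKM for Igf2bp1, while Trim71 was listed at 0 in pre-pro-B and at 0.0103 FPKM in pro-B cells.

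**Figure D4:**
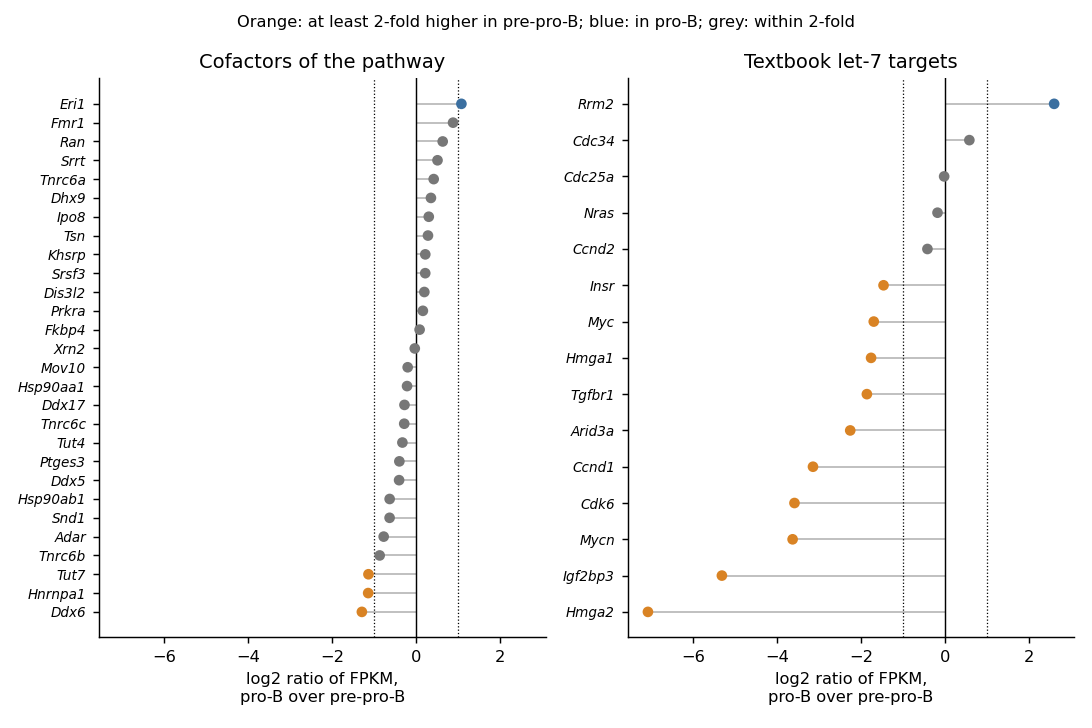
Log2 FPKM ratios, pro-B over pre-pro-B (x axis), for 28 cofactors on the left and 15 of the 17 let-7 targets on the right, with 1 library per cell type. Orange and blue points lie at least 2-fold higher in pre-pro-B (3 cofactors, 10 of the targets drawn) and in pro-B (1 cofactor, 1 target), and grey points lie within 2-fold of each other, between the dotted lines.

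The mRNAs were then searched for the letters that pair with the let-7 seed, CTACCTC, on the strand of the transcript only, in 3′ UTRs of the mm9 GENCODE annotation. This match is a description of sequence and not of a bound site. For each gene the transcript was taken with the longest coding part among those whose length lay within 10% of the most abundant RefSeq transcript. Among the 10 pathway genes, 3 held the letters: Lin28b held them 4 times, and Ago2 and Tarbp2 once each. Of all 16057 genes with such a transcript, 1208 (7.52%) held them, but long 3′ UTRs hold them more often, in 24.9% of those within 20% of the length of the Lin28b 3′ UTR of 4445 bases.

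The Lin28b matches are printed with 14 bases before and 1 base after them, since an adenine after the match is a known feature of effective sites. They lie on the minus strand of chromosome 10 in mm9, at chr10:45100828-45100849, chr10:45098454-45098475, chr10:45098282-45098303 and chr10:45096866-45096887. The first, 36 bases after the stop codon, is followed by an adenine and the other 3 are not. The first match of Hmga2, at chr10:119801280-119801301, and the match of Ago2, at chr15:72932154-72932175, are set beside them.
Lin28b match 1: cccgggcgggaagtCTACCTCa
Lin28b match 2: atacttgttagtaaCTACCTCt
Lin28b match 3: tttacagcacatggCTACCTCc
Lin28b match 4: aatgatggcaccgaCTACCTCt
Hmga2 match 1: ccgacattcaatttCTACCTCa
Ago2 match 1: cagatgcataaaagCTACCTCt

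The 2 other 3′ UTRs with a match were unlike that of Lin28b. The match of Ago2 lay at base 5177 of 5283, near the end, and 29.1% of 3′ UTRs of similar length held one. The match of Tarbp2 lay at base 991 of 1221 in a transcript model whose coding part is short, so its place in the usual Tarbp2 mRNA is uncertain. The 3′ UTRs of Dicer1 (3851 bases), Ago1 (4491 bases), Ago3 (4796 bases) and Ago4 (3678 bases) held none. The Xpo5 model holds just 28 bases of 3′ UTR, too few for the search to say anything.

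Of the 20 let-7 targets with a transcript, 14 (70%) held the letters at least once, with 22 matches in all, beside 7.52% of all genes. These shares were not matched for 3′ UTR length. Known targets are in part listed for such matches, so a high count was to a degree set in advance, and the part of let-7 was not tested. Hmga2 and Igf2bp1 held 4 each, the former far apart between the libraries and the latter near 0 in both. Of 28 cofactors with a transcript, 2 held them: Khsrp, an RNA-binding protein that promotes let-7 maturation, once, and Lin28a 2 times. Over all genes compared that had a 3′ UTR, the median log2 ratio was -0.14 for 8085 genes with 0 matches, -0.23 for 677 genes with 1, -0.24 for 62 genes with 2 and -0.25 for 8 genes with 3 or more. The median 3′ UTR length rose over the same classes, from 859 to 4360 bases, and the part of length in these medians was not tested.

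**Figure D5:**
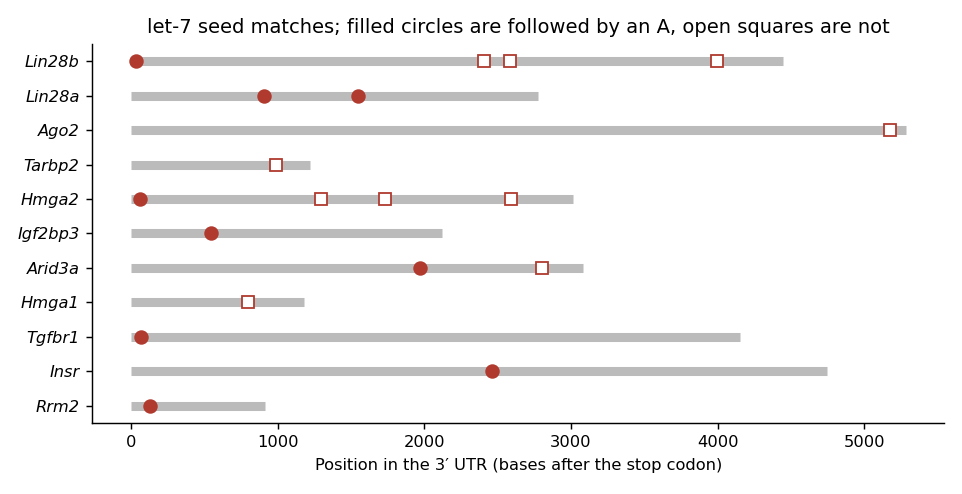
Positions of let-7 seed matches (red) along the 3′ UTRs of 11 genes, drawn to scale as grey bars (x axis, bases after the stop codon). Filled circles are matches followed by an adenine and open squares are not; Lin28b and Hmga2 hold 4 each, the first of them within 58 bases of the stop codon.

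The labels of both libraries were checked against marker genes. All 8 B lineage markers, among them Pax5 and Cd79a, passed 2-fold in favour of pro-B cells, with 0.200 to 2.02 FPKM in pre-pro-B and 135 to 877 FPKM in pro-B cells. Kit, Flt3 and Cd34 were each at 107 to 534 FPKM in pre-pro-B and at 0.377 to 1.52 FPKM in pro-B cells. The 8 stromal markers summed to 17.7 FPKM in pre-pro-B, nearly all from Pdgfrb, and to 7.86 FPKM in pro-B cells, with Dcn and Postn listed at 0 in both. Of the 4 stromal markers compared, Pdgfrb was higher in pre-pro-B, while Col1a2, Col3a1 and Cxcl12 were 3.99-fold, 4.69-fold and 4.74-fold higher in pro-B cells. The 5 myeloid markers summed to 61.0 and 6.52 FPKM, with Elane listed at 0 in both, and the 4 T lineage markers to 37.9 and 0.137 FPKM, nearly all from Cd3g. The part of other cells in the levels above was not tested, and in bulk RNA fewer cells of a type and less RNA per cell cannot be told apart.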

How the data were processed

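Total RNA depleted of ribosomal and small RNAs was sequenced strand-specifically (single end, 97 bp, about 90000000 reads for each of 2 libraries). Per the submitters' processing notes, the authors aligned reads to mm9 with TopHat 1.5 and computed FPKM with 95% intervals per RefSeq transcript with Cuffdiff 2.1.1, and these FPKM were deposited. With 1 library per cell type, the intervals model the spread rather than measure it. The deposited columns of the authors' comparison (fold changes, p-values), with 2 columns of values beside them, were not used. Here, FPKM were summed per gene over protein-coding transcripts (26173 of 26580 accessions had a name) and ratios taken without a pseudocount where either library reached an FPKM of 1; a gene was counted as higher at a 2-fold ratio. Transcript lengths times FPKM summed to 93.2% and 93.3% of the total to which the FPKM were scaled, which is not a measured share of mapped reads. Fragment numbers assume 90000000 mapped reads for each library, which is the approximate read depth that the paper gives. The paper's supplement is described as listing mapped reads for the RNA-seq libraries, and these were not used. The fragment numbers and the floor are therefore approximate. No p-values were computed. The text names all 10 genes, genes of the lists past 2-fold or at 0, and some others for their role or values, chosen after seeing them; some genes of the lists are counted but not reported by name here. The genes and lists were chosen with earlier results of these data known, and the searches for GGAG and CTACCTC were added after the data were seen. Scripts (Python 3.11.15, pandas 2.3.3) were tested on simulated data.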

Additional observations from a re-analysis of the deposited data

How the results depend on the processing

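Of 136 values recomputed under other settings (pseudocounts of 0.1 and 1, TPM, median ratio scaling, the most abundant transcript, other FPKM minimums, a 1.5-fold limit), 132 stayed within a set tolerance and 4 moved. Part of the 132 could not move by construction. A gene with 1 transcript, as each Argonaute gene has, keeps its value when the most abundant transcript is taken. Another FPKM minimum changes which genes are counted but not the ratio of a gene. The count of 132 is therefore not a measure of robustness. The tolerance was 1.5 times for a count, 1% of its value for an Argonaute share, the limits that the Cuffdiff intervals allow for the ratio of a gene, which are wide, and the 95% order-statistic range of its genes for the median of a list. With TPM, 0 cofactors reached 2-fold in favour of pro-B cells, since Eri1 no longer did. Without an FPKM minimum, 2 let-7 targets did. At a limit of 1.5-fold, 1 pathway gene, Ago1, was higher in pre-pro-B cells. With an FPKM of at least 1 required in both libraries, 0 pathway genes reached 2-fold in favour of pro-B cells, since Ago4 was then left out by construction. The log2 ratio of Ago4 ranged from 1.06, with a pseudocount of 1, to 2.82. Within tolerance, cofactors higher in pre-pro-B cells went from 3 to 2 with a pseudocount of 1, and let-7 targets higher in pre-pro-B cells from 11 to 9 with an FPKM of at least 1 in both libraries. Median ratio scaling moved all log2 ratios by 0.09 and TPM by -0.09, which left Ago3 at 0.00. No paired analysis was possible because each cell type had 1 library, and for the same reason none could be left out.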

Other observations

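Srsf3, a splicing factor that helps Drosha recognise hairpins, was within 2-fold, at 31.4 FPKM in pre-pro-B and 36.5 FPKM in pro-B cells. These values cover its protein-coding transcript alone. A non-coding RefSeq transcript of Srsf3, left out of the sums, was higher, at 95.8 FPKM in pre-pro-B and 139 FPKM in pro-B cells. Fmr1, an RNA-binding partner of Argonautes, was just within the limit, at 27.5 and 50.7 FPKM with a log2 ratio of 0.88. Ran, the GTPase that powers export by Xpo5, was at 51.2 and 79.6 FPKM, a log2 ratio of 0.64, opposite in sign to the -0.38 of Xpo5.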
